A study of Mus musculus with 35 samples.

Results

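The mitochondrial ribosomal protein genes were taken as every gene symbol of the count files that begins with Mrpl or Mrps, pseudogenes left out, which gave 77 of 24421 genes. They comprised 50 genes of the large subunit, 26 of the small subunit, and Mrps36, which despite its name encodes a component of the oxoglutarate dehydrogenase complex. Mitochondria carry their own ribosome, which translates the few membrane proteins of oxidative phosphorylation that mitochondrial DNA encodes. Its RNAs come from mitochondrial DNA, whereas its proteins are encoded in the nucleus, translated in the cytosol and imported. Some of these proteins descend from bacterial ribosomal proteins, and others are found only in the mitochondrial particle.

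NELFB is a subunit of the negative elongation factor (NELF), a complex that holds RNA polymerase II near promoters. Poly(A) RNA was sequenced in 35 libraries of immortalized mouse embryonic fibroblasts, all derived from Nelfb flox/- cells, that is with 1 floxed and 1 null allele, of which Cre targets the floxed one. In the 20 population libraries, cells selected for a lentiviral construct carried an empty vector (EV), wild-type NELFB (WT), MT194 (whose changes remove binding to NELFA and NELFC), MT486 (whose changes remove binding to NELFE) or both sets of changes (DMT), and were harvested 7 days after adenovirus with Cre and GFP (Cre) or GFP alone (GFP), with 2 libraries in each of 10 groups. The 15 clone libraries came from colonies isolated after Cre had been given to cells with a WT, MT194 or MT486 construct in a lentiviral vector, or with wild-type NELFB (N48) or a delta-C60 form that lacks the C-terminal end (dC60), both in pBabe, a retroviral vector, by their labels, with 3 libraries in each of 5 groups. The study's methods describe lentivirus for delta-C60 as well. Libraries held between 17969149 and 29080007 reads on genes. Because these are bulk libraries, fewer cells of a type and less RNA per cell cannot be told apart.

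Nelfb itself was read first as a check of the labels. In CPM, a gene's reads relative to library size (scaled by TMM, separately for populations and clones), it was at 46.1 and 39.5 in EV-GFP and at 7.97 and 5.46 in EV-Cre. This was a log2 fold change of -2.67 (SE 0.22, adjusted p = 2.53e-05). Adjusted p-values here and below come from the quasi-likelihood test of edgeR, adjusted over all genes tested by the method of Benjamini and Hochberg. In the Cre groups with a construct, Nelfb lay between 60.5 and 208 CPM, with reads of the endogenous gene and of the construct counted as one. Among the clones labelled WT, 2 went against their label, with 10.3 CPM in replicate 1 and 15.5 CPM in replicate 3 beside 109 CPM in replicate 2, so this group is called WT-labelled. Replicates 1 and 2 of the MT486 clones were far more alike than any other pair of clone libraries within a group. Their counts gave a mean chi-square per gene of 5.06, beside 32.4 to 349 for the other pairs, which is more than sampling noise alone gives. They were kept as 2 libraries, and whether they came from the same colony was not tested, so clone results are also given with their counts summed as 1 library.

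The libraries had most of the fibroblast markers read. Of 12 such genes, 1 had a median count of 0 in each replicate of the populations and 2 in the clones. Summed over 12 fibroblast genes, of which Fn1 was the most abundant, the median was 24989 CPM in replicate 1 of the populations, 36685 CPM in replicate 2 and 16980 CPM in the clones. The 5 epithelial markers summed to at most 2.07 CPM in any library, and 4 of them had a median count of 0. The sums of the blood and macrophage markers reached at most 9.77 CPM and those of the endothelial markers 5.03 CPM. The neural and muscle markers, almost all of them Tubb3 reads, reached 53.2 CPM in the clones.

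Mitoribosomal genes spanned a wide range of levels. Levels were set beside each other per length, as FPKM, reads scaled to the annotated exon length of a gene and to all reads on genes, without TMM scaling. Over the 75 members that passed the filter on low counts, the median was 11.0 FPKM with quartiles of 6.75 and 22.0. Large-subunit genes (median 11.3, 49 genes) and small-subunit genes (median 10.7, 26 genes) were spread over the same range. Over the 35 libraries together, the 5 members with the highest median were Mrps6 (from 34.0 to 108 FPKM over the libraries), Mrpl34 (median 57.1 FPKM), Mrpl10 (47.6), Mrpl28 (44.4) and Mrpl54 (42.9). All but Mrpl54 descend from bacterial proteins. The ranges of these 5 overlapped, so that the order among them was not resolved, and it differed between the families. In the populations the highest medians were those of Mrpl34 (48.1 FPKM), Mrps6 (47.4), Mrpl10 (41.8), Mrpl54 (41.5) and Mrpl28 (36.0). In the clones they were those of Mrpl34 (88.8 FPKM), Mrpl12 (88.0), Mrpl28 (83.3), Mrpl10 (75.7) and Mrps6 (70.6), with Mrpl54 lower at 48.5 FPKM. Mrps6 overlaps Slc5a3, Gm16310 and Gm49711 on the same strand, and the part of these overlaps in its level was not tested.

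At the other end, Mrpl48 had a median of 1.06 FPKM, Mrps5 1.94, Mrpl47 2.14 and Mrps33 2.15, also with overlapping ranges. Mrpl23 and Mrps36 were lower still, at 0 to 10 and 0 to 7 counts in a library, and were the 2 members that failed the filter in both families. The other 75 were tested, among 13805 genes in the populations and 13223 in the clones. Mrpl48 was the lowest of the 75 in both families. With the longest transcript in place of all exons, the highest median over the 35 libraries was again that of Mrps6 and the lowest that of Mrpl48.

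**Figure D1:**
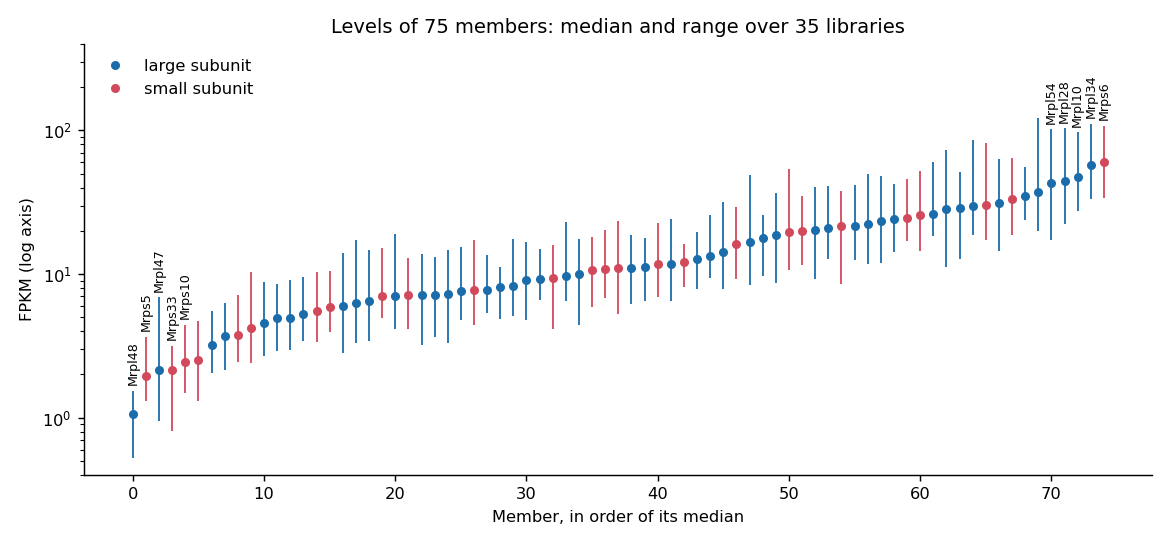
Each point is the median level (FPKM, log axis) of 1 of 75 members over 35 libraries, with a line from the lowest to the highest library, members ordered by median and coloured by subunit. Medians run from 1.06 FPKM (Mrpl48) to above 57.1 FPKM (Mrps6), and genes of both subunits lie along the whole order.

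The summed level of the members was higher in replicate 1 than in replicate 2 of each population group. It was 2071 and 1709 CPM in replicates 1 and 2 of EV-Cre and 2091 and 1716 CPM in those of EV-GFP. Over the 10 groups, replicate 1 ran from 2071 (EV-Cre) to 2331 CPM (MT486-Cre) and replicate 2 from 1647 (MT486-GFP) to 2007 CPM (WT-Cre), without overlap. The ratio of replicate 2 to replicate 1 was 0.810 ± 0.0492 (SD, n = 10 groups). In the clones, scaled apart from the populations, the sum ran from 2965 to 4031 CPM. Reads of the large subunit exceeded those of the small subunit by a ratio of 1.99 to 2.16 in population libraries and of 2.05 to 2.32 in clone libraries.

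**Figure D2:**
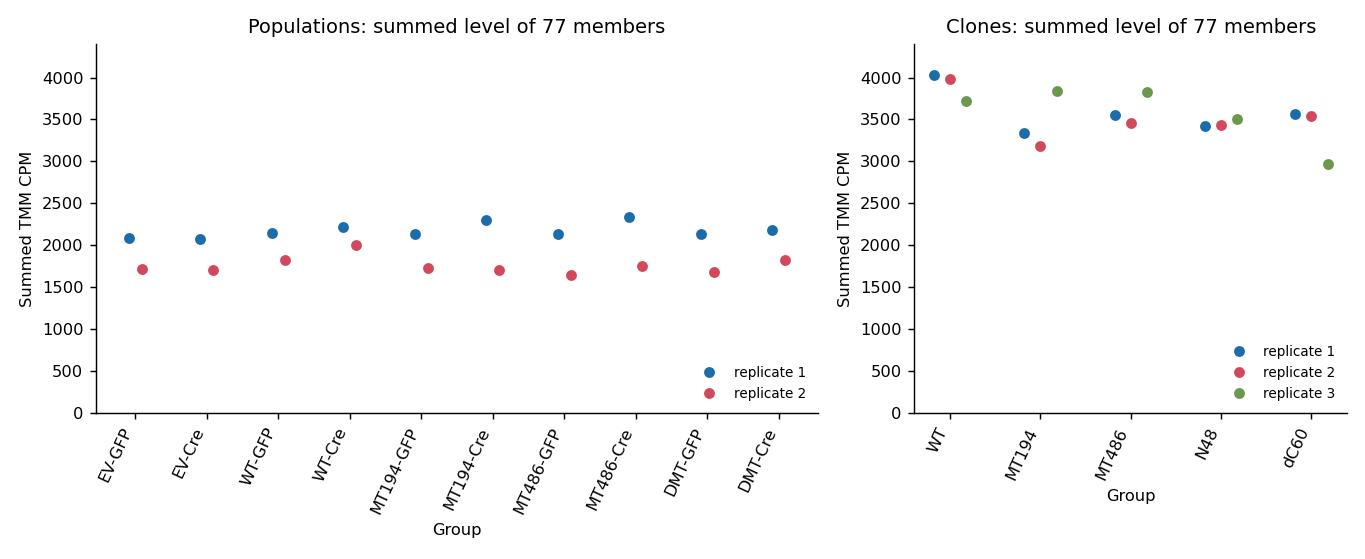
Each point is the summed level of all 77 members in 1 library (TMM CPM), by group, coloured by replicate number, with populations on the left and clones, scaled apart, on the right. Replicate 1 lies above replicate 2 in each of the 10 population groups.

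The replicate numbers of the populations stand for independent experiments, and the members were compared between them over all 10 groups. Of 75 members, 67 were lower and 1 was higher in replicate 2, beside 71.5% of all genes called and 36.6% called lower. The median log2 difference was -0.31 for the members and -0.01 for all genes. Mrpl50, a mitochondria-specific protein of the large subunit, was at 64.3 and 40.0 CPM in replicates 1 and 2 of EV-GFP and at 60.4 and 41.1 CPM in those of EV-Cre. It had the largest decrease among the members (-0.54, SE 0.05, adjusted p = 1.83e-08), followed by Mrps18c (-0.51) and Mrpl18 (-0.51). The exception was Mrps18b, which rose (0.19, SE 0.06, adjusted p = 0.0116). Of the 75 members, 49 were lower in replicate 2 in all 10 groups, and the others in fewer groups. This count was made for the members only, without the share of all genes.

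Other groups of genes were also called between the experiments, beside the same 71.5% of all genes. Of 78 cytosolic ribosomal proteins 49 were lower and 12 higher (median -0.39), and of 75 nuclear-encoded respiratory chain subunits 53 were lower and 7 higher (median -0.22). Of 11 fibroblast markers tested 9 were higher and 1 was lower in replicate 2 (median 0.67). Reads outside annotated genes made up 11.7 to 15.8% in replicate 1 and 15.2 to 21.3% in replicate 2. The part of these in the difference between experiments was not tested.

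Deletion of Nelfb in cells with the empty vector is the comparison that asks what loss of NELFB does. The median log2 fold change of the members in EV-Cre over EV-GFP was 0.02, and 37 of 75 members were below 0. The sign of this median rested on single libraries. It was -0.15 without EV-Cre replicate 1 and -0.12 without EV-GFP replicate 2. It was 0.12 without EV-Cre replicate 2 and 0.15 without EV-GFP replicate 1. Leaving out any of these leaves the experiments unbalanced between the groups. Within experiment 1 the median of the members was 0.02, and within experiment 2 it was 0.00053. Only Mrpl54 was called, beside 13.0% of all genes called and 6.55% called lower. DESeq2, used as the other test, called 4 members, beside 17.8% of the genes to which it gave an adjusted p, the base of all its shares below. The other log2 fold changes reached at most 0.45 upward, in Mrpl57. Of the 75 members, 26 were lower with Cre in both experiments, 30 were higher in both and 19 differed in sign. These counts too were made for the members only.

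Mrpl54 encodes a mitochondria-specific protein of the large subunit (chromosome 10, 81264713 to 81266934, GRCm38, minus strand, with Apba3 starting within 1 kb on the other strand). It was at 38.4 and 37.5 CPM in EV-GFP and at 21.4 and 15.4 CPM in EV-Cre, so that the groups did not overlap. It fell by 1.04 on the log2 scale (SE 0.20, adjusted p = 0.00452), with -0.83 in experiment 1 and -1.25 in experiment 2. Without EV-Cre replicate 2 the log2 fold change was -0.83 and the call was lost (adjusted p = 0.0620). Here and wherever 1 of 2 population libraries is left out, the lone library of that group is assumed to vary like the other groups.

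With the replicate number as a block, 21 members were called in EV, beside 43.0% of all genes. This was 28% of the members, with 9 higher (beside 21.2% of all genes) and 12 lower (beside 21.8%). Mrpl54 again had the largest decrease (-1.06, SE 0.10, adjusted p = 5.41e-07). It was followed by Mrps28 (-0.82, SE 0.14, adjusted p = 0.000136), Mrpl18 (-0.67), Mrpl27 (-0.61) and Mrpl52 (-0.57). The higher members were led by Mrpl57 (0.45, SE 0.11, adjusted p = 0.00396), Mrps22 (0.41), Mrps5 (0.38), Mrpl38 (0.33) and Mrps26 (0.33).

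Mrps28, a small-subunit protein (chromosome 3, 8802146 to 8923918, GRCm38, minus strand), was at 16.2 and 13.0 CPM in EV-GFP and at 9.42 and 7.16 CPM in EV-Cre. The groups did not overlap, and without the block the change missed the threshold (-0.81, SE 0.26, adjusted p = 0.0620). Mrps28 overlaps the predicted genes Gm15466 and Gm15467, and Mrpl18 overlaps Tcp1 on the opposite strand. The strand setting of the counting is not given in the sources used here, so reads of genes that overlap on opposite strands cannot be told apart.

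Members with a central or additional role were read whatever their values. Mrpl12, a stalk protein that also binds the mitochondrial RNA polymerase, was at 52.5 and 33.7 CPM in EV-GFP and at 46.6 and 32.8 CPM in EV-Cre. Its log2 fold change was -0.12 (SE 0.34), that of Mrpl10, on which the stalk is built, -0.06 (SE 0.23), and that of Mrpl11 -0.26 (SE 0.27). Mrps12, part of the decoding site, had -0.11 (SE 0.17). The paralogues Mrps18a, Mrps18b and Mrps18c had 0.07, 0.24 and 0.13.

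Mrpl3, Mrps16, Mrps22 and Mrpl44, in which mutations cause mitochondrial disease, had log2 fold changes of 0.09, -0.23, 0.42 and 0.03. Mrps30, a large-subunit protein despite its symbol, had 0.29, and Mrpl55 had 0.23. None of the members with such a role was called without the block (adjusted p from 0.181 to 0.950). The signs of Mrpl12, Mrpl10, Mrpl11, Mrps18a, Mrps18b, Mrps18c and Mrpl44 turned when a single library was left out, which leaves the experiments unbalanced between the groups. Within experiments 1 and 2 the log2 ratios were -0.17 and -0.04 for Mrpl12 and -0.28 and -0.21 for Mrpl11. They were 0.01 and 0.16 for Mrps18a and 0.03 and 0.39 for Mrps18b. Those of Mrpl10, Mrps18c and Mrpl44 differed in sign between the experiments. With the block, Mrps22 (0.41, SE 0.13, adjusted p = 0.0156) and Mrps30 (0.29, SE 0.10, adjusted p = 0.0311) were called.

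Other genes of mitochondrial function were read in the same comparison from fixed lists. Most complexes of the respiratory chain, but not all, also hold proteins that mitochondrial ribosomes make. Of 75 nuclear-encoded respiratory chain subunits, 17 fell and 1 rose (median -0.36). This stands beside 13.0% of all genes called, the share for each list in EV without the block. With the block 49 fell and 1 rose. Ndufb11, a subunit of complex I, fell most among those called (-0.99, SE 0.13, adjusted p = 0.000373). The rise was in Cox6a2, a muscle isoform of a cytochrome c oxidase subunit (2.74, SE 0.52, adjusted p = 0.00417). Of 78 cytosolic ribosomal proteins, Rps10 was called (0.83, SE 0.25, adjusted p = 0.0441), and the median was -0.10. With the block, 21 of them fell and 7 rose. All of these blocked counts stand beside 43.0% of all genes called with the block in EV.

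Of 30 genes for mitoribosome assembly and rRNA modification, 3 rose and 2 fell (median 0.15). Mterf4, which binds the methyltransferase Nsun4, fell by 1.81 (SE 0.50, adjusted p = 0.0304), and Mtg2, a GTPase of large-subunit assembly, rose by 0.71 (SE 0.19, adjusted p = 0.0240). With the block 8 rose and 5 fell (43.3% of the list, beside 43.0% of all genes). Among 6 mitoribosomal proteins with other symbols and 19 mitochondrial translation factors, edgeR called 0, with 1 and 0 at an unadjusted p under 0.05. With the block, 1 of the 6 rose and 1 fell, and of the translation factors 1 rose and 2 fell. Of 20 mitochondrial aminoacyl-tRNA synthetases Ears2 rose (0.60), and of 12 genes of mitochondrial transcription and replication the helicase gene Peo1 rose (0.46). With the block, beside the same 43.0%, 5 synthetases rose and 4 fell (45%), and 1 gene of transcription and replication rose and 1 fell. The 13 mRNAs that mitochondrial DNA encodes were not analysed here.

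Of 12 regulators of mitochondrial biogenesis 1 rose and 3 fell. Myc was at 72.1 and 57.1 CPM in EV-GFP and at 228 and 204 CPM in EV-Cre (1.74, SE 0.15, adjusted p = 3.27e-05). The coactivators Ppargc1b (-1.44, SE 0.14) and Ppargc1a (-1.05, SE 0.29) and Gabpb2, a subunit of the ETS-type factor GABP (-0.67, SE 0.17), fell. With the block, which called 43.0% of all genes, 3 regulators rose and 5 fell. Of 25 import genes 1 rose and 2 fell, from Timm17b (-1.14) to Timm9 (0.68), and with the block 9 rose and 2 fell (44%). Of 12 genes of the mitochondrial unfolded protein response Ddit3 rose (0.67), and with the block 4 rose. Of 11 fibroblast markers S100a4 fell (-1.47, SE 0.24, adjusted p = 0.00171), and with the block 5 fell and 1 rose. Both blood and macrophage markers tested rose with the block. The part of these markers in the other changes was not tested.

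**Figure D3:**
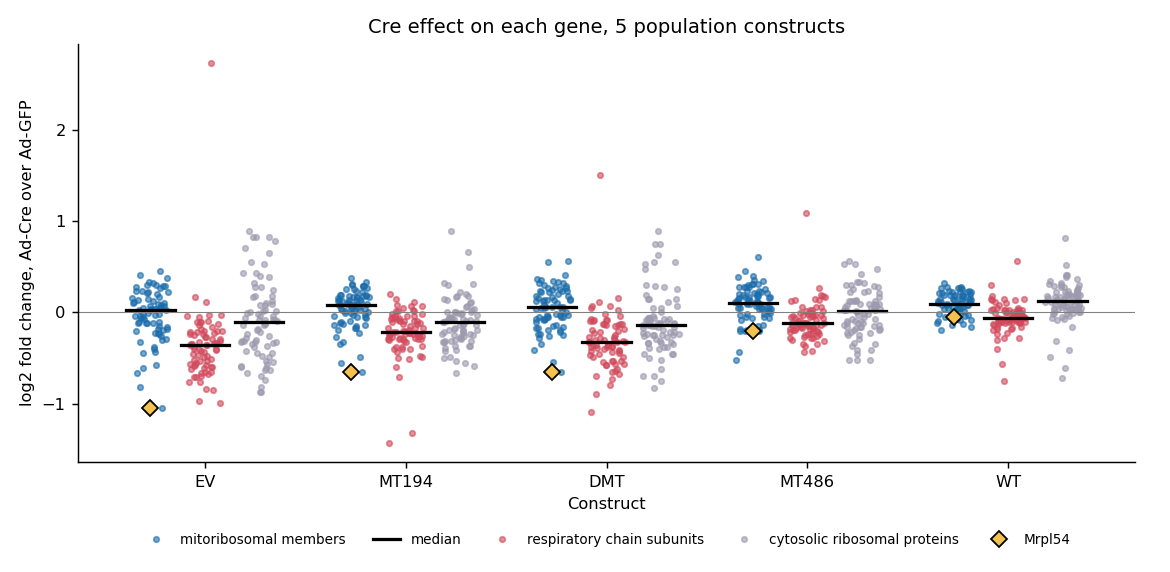
Each point is the log2 fold change (Ad-Cre over Ad-GFP) of 1 gene in 1 of 5 constructs, for 75 mitoribosomal members, 75 respiratory chain subunits and 78 cytosolic ribosomal proteins, with a black bar at each median and a diamond that marks Mrpl54 again. In EV the medians are 0.02, -0.36 and -0.10, and the diamond lies at -1.04 in EV and at -0.05 in WT.

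The same deletion was made in cells that carried a construct, each compared with its own GFP libraries. With WT, 0 members were called by edgeR, beside 0.0217% of all genes, with 0 at an unadjusted p under 0.05 and 0 by DESeq2 (beside 0.610%). With the block the count was also 0, beside 5.61%. The 3 members with the smallest p were Mrpl4 (0.18), Mrps24 (0.27) and Mrpl57 (0.22). The median of the members was 0.09.

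With MT194, 0 members were called by edgeR (beside 4.49%), 2 had an unadjusted p under 0.05 and DESeq2 called 1 (beside 8.17%). With the block 8 were called, 3 higher and 5 lower, beside 26.7%. The median was 0.08. With MT486, 0 were called by edgeR (beside 2.54%), 1 had an unadjusted p under 0.05 and DESeq2 called 1 (beside 6.52%). With the block 10 were called, 8 higher and 2 lower, beside 23.2%. In MT486, Mrps22 (0.39) and Mrps24 (0.35) followed Mrpl57 in order of p. With DMT, 1 was called, beside 10.8%, and 18 with the block, 13 higher and 5 lower, beside 40.7%. DESeq2 called 4 in DMT, beside 16.0%. The medians were 0.11 in MT486 and 0.06 in DMT. With each library left out in turn, the median ran from -0.0021 to 0.20 in WT, from -0.18 to 0.24 in MT194, from -0.10 to 0.28 in MT486 and from -0.09 to 0.23 in DMT. These fits leave the experiments unbalanced between the groups. Within experiments 1 and 2 the medians were 0.05 and 0.12 in WT and 0.11 and 0.0067 in MT194. They were 0.12 and 0.09 in MT486 and 0.02 and 0.11 in DMT.

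The median of the respiratory chain subunits was -0.07 with WT, -0.22 with MT194, -0.12 with MT486 and -0.33 with DMT. In DMT 8 of 75 fell and none rose, which is 10.7% beside 10.8% of all genes, while edgeR called 0 in WT, MT194 and MT486, with 0, 11 and 2 at an unadjusted p under 0.05. With the block 0 fell in WT (beside 5.61% of all genes called), 23 in MT194 (30.7%, beside 26.7%), 10 in MT486 (13.3%, beside 23.2%) and 44 in DMT, where 1 rose (60%, beside 40.7%).

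Mrpl54 differed between constructs in its response to Cre. In MT194 it was at 39.2 and 35.2 CPM with GFP and at 26.3 and 21.1 CPM with Cre, and in DMT at 37.6 and 34.7 CPM and at 25.1 and 20.7 CPM. In MT486 it was at 37.4 and 32.7 CPM with GFP and at 35.2 and 25.8 CPM with Cre, and in WT at 43.4 and 35.7 CPM and at 41.1 and 35.1 CPM. Cre and GFP libraries were apart in MT194 and DMT and overlapped in MT486 and WT. Within experiments 1 and 2 the log2 ratios of Cre to GFP were -0.09 and -0.34 in MT486 and -0.08 and -0.02 in WT. The log2 fold changes were -0.65 in MT194 (adjusted p = 0.0897), -0.66 in DMT (adjusted p = 0.0509), -0.20 in MT486 (adjusted p = 0.769) and -0.05 in WT (adjusted p = 1.00), each with an SE of 0.20. With the block, MT194 (adjusted p = 0.000146) and DMT (adjusted p = 6.05e-05) passed the threshold.

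Mrpl57, a mitochondria-specific protein of the large subunit (chromosome 14, 57826234 to 57829296, GRCm38, plus strand, with Ska3 starting within 1 kb on the other strand), was the member called in DMT. It was at 25.2 and 19.9 CPM in DMT-GFP and at 32.0 and 34.3 CPM in DMT-Cre, without overlap, and rose by 0.56 (SE 0.15, adjusted p = 0.0355). The call was lost without DMT-Cre replicate 1 (adjusted p = 0.102), DMT-Cre replicate 2 (0.165) or DMT-GFP replicate 2 (0.296), with log2 fold changes from 0.39 to 0.61. In MT486 it was at 22.2 and 19.9 CPM with GFP and at 34.7 and 29.4 CPM with Cre (0.61, adjusted p = 0.0580, and 0.00113 with the block). In EV it was at 23.4 and 22.9 CPM with GFP and at 32.1 and 31.3 CPM with Cre. In WT it was at 27.2 and 20.9 CPM and at 27.4 and 28.6 CPM. Both WT Cre libraries lay above the GFP libraries, with a log2 ratio of 0.01 in experiment 1 and 0.45 in experiment 2.

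**Figure D4:**
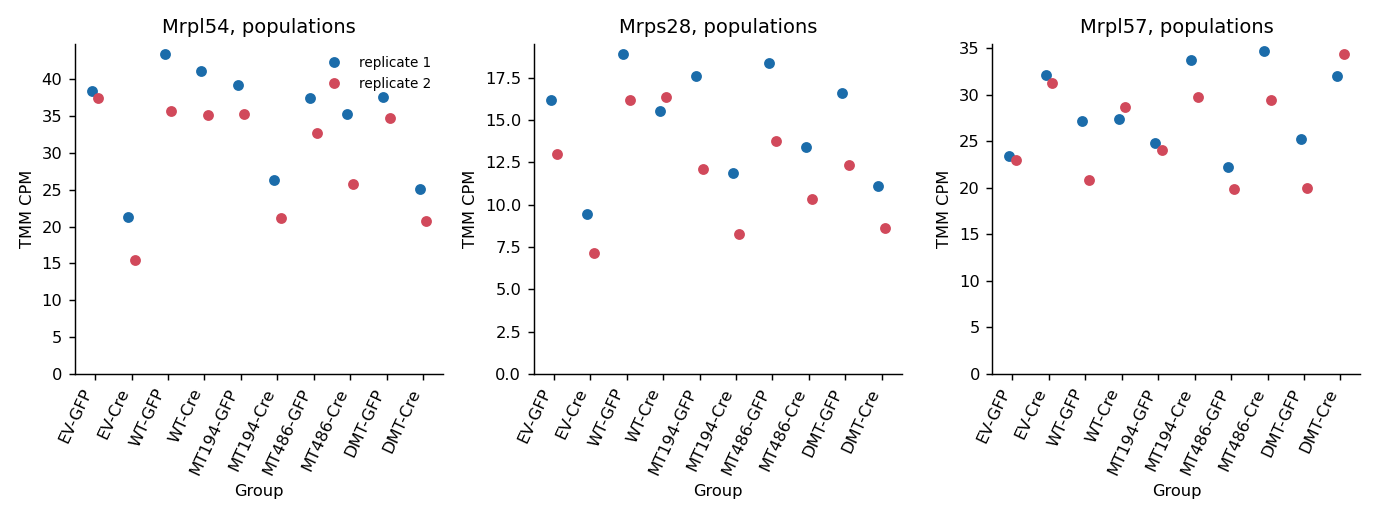
Each point is the level (TMM CPM) of Mrpl54, Mrps28 or Mrpl57 in 1 of 20 population libraries, by group, coloured by replicate number. Within each replicate number Mrpl54 is lowest in EV-Cre (21.4 and 15.4 CPM), and Mrpl57 is higher in both Cre than in both GFP libraries of each construct, by the least in WT (27.4 and 28.6 against 27.2 and 20.9 CPM).

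The Cre-treated constructs were then set against EV-Cre, comparisons that share the EV-Cre libraries. In WT-Cre 2 members were called, both higher, beside 8.00% of all genes, and 24 with the block, 22 higher and 2 lower, beside 40.1%. DESeq2 called 5, beside 13.8%. Mrpl54 was higher by 1.05 (SE 0.20, adjusted p = 0.00808), a call lost without EV-Cre replicate 2 (0.84, adjusted p = 0.107) or WT-Cre replicate 1 (0.93, adjusted p = 0.0809). Mrps28, at 15.5 and 16.4 CPM in WT-Cre and so above both EV-Cre libraries, was higher by 0.94 (SE 0.26, adjusted p = 0.0461). Its call was lost when any of the 4 libraries was left out (adjusted p from 0.0708 to 0.331), while the log2 fold change stayed between 0.76 and 1.16. Respiratory chain subunits had a median of 0.41 here, with 13 of 75 higher and 1 lower, and with the block 56 were higher and 1 was lower (76%, beside 40.1%). Of 78 cytosolic ribosomal proteins 42 were higher and 7 lower with the block (62.8%). Of 11 fibroblast markers 5 were higher and 1 was lower with the block, and both blood and macrophage markers were lower. Reads outside annotated genes made up 11.7 and 15.2% in WT-Cre and 15.5 and 18.8% in EV-Cre. The part of these in the other differences was not tested.

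In MT194-Cre 0 members were called by edgeR (beside 0.225%, with 1 at an unadjusted p under 0.05 and 0 by DESeq2, beside 2.19%) and 4 with the block, all higher, beside 13.1%. Mrpl34, at 37.2 and 32.3 CPM in MT194-Cre against 22.4 and 22.1 CPM in EV-Cre, came first by p (0.64, SE 0.20, adjusted p = 0.256, and 0.00215 with the block), before Mrpl52 (0.49) and Mrpl4 (0.21). In MT486-Cre 0 were called by edgeR (beside 0.362%, with 3 at an unadjusted p under 0.05 and 1 by DESeq2, beside 3.97%) and 8 with the block, all higher, beside 17.9%. Mrpl54 (0.73, adjusted p = 0.128), Mrpl52 (0.57) and Mrpl21 (0.46) came first. In DMT-Cre 0 were called by edgeR (beside 0.00724%, with 0 at an unadjusted p under 0.05 and 0 by DESeq2, beside 0.0580%) and 0 with the block, beside 0.413%. Mrps5 (-0.34), Mrpl54 (0.32) and Mrpl52 (0.30) came first.

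Whether the Cre effect differed from that in EV was tested as a difference of differences, which shares the EV libraries. Without the block edgeR called 0 members for WT (beside 0.681%), MT194 (0.00724%), MT486 (0.00724%) and DMT (0.00724%), with 2, 0, 2 and 0 at an unadjusted p under 0.05, and DESeq2 called 1 (beside 3.43%), 0 (0.155%), 0 (0.412%) and 0 (0.00724%). With the block, 5 members differed for WT (beside 17.3%), 0 for MT194 (0.992%), 1 for MT486 (2.96%) and 0 for DMT (0.00724%). The difference in Mrpl54 was 1.01 for WT (SE 0.14, adjusted p = 0.000201) and 0.85 for MT486 (SE 0.15, adjusted p = 0.00571) with the block. Among the 5 GFP groups, in which the floxed allele had not been deleted, edgeR called 0 members (beside 0.00724%, with 0 by DESeq2, beside 0.348%) and 0 with the block (beside 0.876%). The smallest unadjusted p there were those of Mrpl4 (0.0645), Mrpl55 (0.168) and Mrps11 (0.299).

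Among the clones, dC60 was compared with N48, the pair labelled with pBabe. No member was called by edgeR, beside 0% of all genes, with 4 members at an unadjusted p under 0.05 and 0 by DESeq2 (beside 1.85%). Without dC60 replicate 2 edgeR also called 0 members, beside 2.33% of all genes. Mrpl37 (0.52), Mrpl27 (-0.50) and Mrps15 (0.37) came first by p. MT486 and N48 also differ by their labels in vector. Between them edgeR called 0 (beside 0.287%), and DESeq2 called 2 (beside 4.49%). At an unadjusted p under 0.05 there were 9, given without the share of all genes at that level. Mrpl34 (0.54, adjusted p = 0.111), Mrps15 (0.53) and Mrpl36 (0.89) came first.

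Between MT194 and N48, which differ by their labels in vector as well as in the construct, 3 members were called, beside 5.86%, and 5 by DESeq2, beside 13.7%. Mrpl54 was at 27.2, 36.4 and 29.4 CPM in MT194 and at 56.3, 57.8 and 82.0 CPM in N48 (-1.08, SE 0.24, adjusted p = 0.0285). Mrps30 (chromosome 13, 118378381 to 118387252, minus strand) was at 27.2, 34.9 and 32.2 CPM in MT194 and at 54.8, 56.2 and 45.7 CPM in N48 (-0.73, SE 0.16, adjusted p = 0.0263). Mrpl34 (chromosome 8, 71464959 to 71465747, plus strand) was at 57.9, 53.5 and 61.0 CPM in MT194 and at 33.8, 35.5 and 42.5 CPM in N48 (0.62, SE 0.14, adjusted p = 0.0297). The groups did not overlap in any of these, with Mrpl34 higher and the others lower in MT194. Without MT194 replicate 1, MT194 replicate 3, N48 replicate 1 or N48 replicate 2, 0 members were called (beside 0.423 to 2.07% of all genes). The log2 fold changes then stayed between -1.17 and -0.98 for Mrpl54, -0.75 and -0.63 for Mrps30 and 0.56 and 0.62 for Mrpl34. With no filter on low counts the call of Mrpl34 was lost (0.62, adjusted p = 0.0540). With the replicate number as a block that of Mrpl54 was lost (-1.08, adjusted p = 0.0510). With the 2 like MT486 libraries summed, the same 3 members were called, beside 2.87%, and edgeR called 0 between dC60 and N48 (beside 0%) and 0 between MT486 and N48 (beside 0.0297%). Mrps30 overlaps B430218F22Rik on the opposite strand.

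Between N48 and the WT-labelled clones, which by their labels also differ in vector, 2 members were called, beside 2.10%, and both were lower in N48. DESeq2 called 10, beside 9.49%. Mrpl34 was at 61.8, 63.3 and 64.3 CPM in the WT-labelled clones (-0.76, SE 0.14, adjusted p = 0.0272). Mrps15, a small-subunit protein (chromosome 4, 126046925 to 126055532, plus strand), was at 32.9, 37.3 and 33.4 CPM in these and at 20.5, 20.5 and 21.9 CPM in N48 (-0.72, SE 0.16, adjusted p = 0.0429). Neither overlapped, and neither call held without any 1 of the 3 WT-labelled libraries or without N48 replicate 1 or 2, while the log2 fold changes stayed between -0.79 and -0.70 for Mrpl34 and between -0.77 and -0.68 for Mrps15. With the 2 WT-labelled libraries of low Nelfb left out together, 0 members were called (beside 0.0143%), Mrpl34 had -0.78 and Mrps15 -0.85 (adjusted p = 0.494 for both), and the lone library left was assumed to vary like the other groups. With the 2 like MT486 libraries summed, Mrpl34 was called, beside 0.453%, and Mrps15 was not (adjusted p = 0.0667). Over all clones, Mrpl34 was lower in each library labelled with pBabe (N48 and dC60) than in each WT-labelled, MT194 or MT486 library. Mrps15 did not split in this way. The part of the vector in these differences was not tested.

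Over all 5 clone groups 4 members differed, beside 11.6%, namely Mrpl34 (adjusted p = 0.0153), Mrpl54 (0.0186), Mrps30 (0.0272) and Mrpl19 (0.0414). DESeq2 called 13, beside 29.3%. Mrpl54 was at 33.5, 32.1 and 35.7 CPM in the WT-labelled clones, at 77.6, 77.7 and 61.6 CPM in MT486 and at 71.9, 41.1 and 37.2 CPM in dC60, where replicate 1 stood apart. Mrpl19, a large-subunit protein of bacterial origin, was at 66.1, 61.9 and 75.6 CPM in the WT-labelled clones and at 39.5, 37.4 and 43.4 CPM in MT194, without overlap. The gene overlaps Gcfc2 on the opposite strand. The call of Mrpl19 was lost without any 1 of 10 libraries (adjusted p from 0.0536 to 0.117), namely each WT-labelled and MT194 library and replicates 1 and 2 of MT486 and N48. That of Mrps30 was lost without any 1 of 8 of these, all but MT194 replicate 2 and N48 replicate 1 (from 0.0518 to 0.0986). The call of Mrpl54 was lost without MT194 replicate 1 (0.0559), and that of Mrpl34 held whichever single library was left out. With the replicate number as a block, Mrpl19 (0.0679) and Mrps30 (0.0558) missed the threshold. With the 2 like MT486 libraries summed, Mrpl34 and Mrpl54 were called, beside 4.84%, and Mrps30 (0.0523) and Mrpl19 (0.0697) were not. None of these 4 passed the threshold with the low-Nelfb libraries left out, when 1 other member did, Mrpl36 (adjusted p = 0.0409, beside 1.27% of all genes), which is named after its value was seen.

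**Figure D5:**
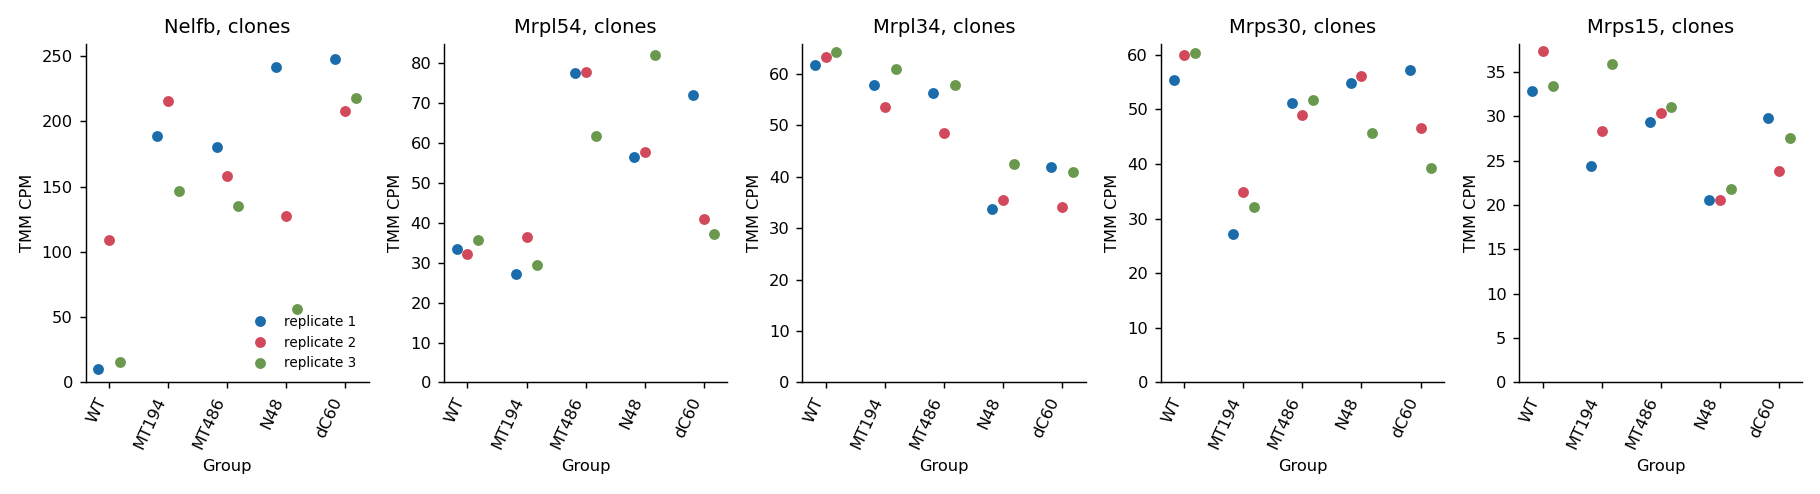
Each point is the level (TMM CPM) of Nelfb, Mrpl54, Mrpl34, Mrps30 or Mrps15 in 1 of 15 clone libraries, by group, coloured by replicate number. Nelfb is at 10.3 and 15.5 CPM in 2 of the WT-labelled libraries, Mrps30 is lowest in MT194, and Mrpl34 and Mrps15 are lower in N48 than in the WT-labelled clones.

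Promoter sequences are shown for Mrpl34 and Mrps15, the members called between N48 and the WT-labelled clones. RefSeq's table (GRCm38.p6) held the window from 250 bases before to 50 after the start for 68 of the 77 members. The 250 bases before the start read as follows, with a match to a searched motif in capitals.
Mrpl34, chr8:71464676-71464925, plus strand: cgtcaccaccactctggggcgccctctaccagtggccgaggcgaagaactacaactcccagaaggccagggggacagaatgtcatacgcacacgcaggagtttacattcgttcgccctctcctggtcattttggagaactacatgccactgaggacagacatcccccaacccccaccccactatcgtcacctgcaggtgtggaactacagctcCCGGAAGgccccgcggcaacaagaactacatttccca
Mrps15, chr4:126046678-126046927, plus strand: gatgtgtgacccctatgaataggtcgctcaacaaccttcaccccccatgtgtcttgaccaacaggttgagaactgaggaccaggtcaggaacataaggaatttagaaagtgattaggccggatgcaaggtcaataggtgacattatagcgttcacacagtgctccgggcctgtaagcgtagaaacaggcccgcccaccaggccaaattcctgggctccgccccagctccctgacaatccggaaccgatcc
The ETS motif CCGGAAG, searched on both strands, lay in the window of 25 of 68 members (36.8%), beside 9.93% of the 27025 genes in the table, and Mrpl34 held 1 match. The NRF1 motif GCGCATGC lay in 8 (11.8%, beside 3.05%) and the YY1 motif AAGATGGC in 12 (17.6%, beside 3.19%). Mrps15 held none of these letters in its window. In EV the median log2 fold change was -0.11 for members with an ETS match and 0.03 for those without, 0.08 and -0.01 for NRF1, and 0.01 and 0.01 for YY1. These are matches of letters only, and the medians were not tested.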

How the data were processed

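Counts per gene were deposited by the authors for 35 libraries of mouse embryonic fibroblasts. The authors aligned 50-base single reads to mm10 with Bowtie2, skipped alignments with a quality under 30 and counted reads with HTSeq. The strand setting is not given in the sources used here. edgeR 4.0.16 in R 4.3.3 was run on the counts with TMM scaling, filterByExpr and a robust quasi-likelihood fit with 1 mean per group, apart for the 20 population and the 15 clone libraries, with calls made below an adjusted p of 0.05. The p-values measure only the spread between these libraries. Counts at an unadjusted p under 0.05 are given without the share of all genes at that level. The shares printed beside them are at the adjusted threshold, so these counts are not read as a result. FPKM and positions used the GENCODE annotation of GRCm38.

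Libraries with the same replicate number deviated together in the populations (45 of 45 pairs of groups correlated over 0.1, from 0.420 to 0.730), where the study's methods describe independent experiments, so blocked values are given there. The members and lists were chosen with earlier results of these data known. Named are Nelfb, members that failed the filter, the highest and lowest by FPKM, called members with the largest changes (up to 5 in each direction in EV and 3 elsewhere, with at least 50 counts on average) or the 3 with the smallest p, members of special role, and the called extremes of each list in EV. Members named beyond these were chosen after their values were seen. Alternatives were DESeq2 1.42.0, its size factors, no filter, a fold threshold, the block, each library left out and, added after seeing the data, 2 sets of clone libraries left out or summed.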

Additional observations from a re-analysis of the deposited data

Results flagged for a closer look

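For 5 of 75 members, beside 17.3% of all genes, the Cre effect in WT differed from that in EV by a direct test of the difference, with the replicate number as a block (edgeR, Benjamini-Hochberg adjustment over all genes). The difference on the log2 scale was 1.01 for Mrpl54 (adjusted p = 0.000201), 0.86 for Mrpl52 (adjusted p = 0.00210), 0.76 for Mrpl18 (adjusted p = 0.00761), 0.69 for Mrps28 (adjusted p = 0.0183) and 0.59 for Mrpl34 (adjusted p = 0.0198). Mrpl52, a mitochondria-specific protein of the large subunit, was at 24.3 and 21.0 CPM in EV-GFP and at 16.3 and 14.2 CPM in EV-Cre, but at 24.3 and 18.7 CPM in WT-GFP and at 26.0 CPM in both WT-Cre libraries. Mrpl18, a large-subunit protein that overlaps Tcp1, was at 37.8 and 28.0 CPM in EV-GFP and at 24.6 and 17.0 CPM in EV-Cre, but at 36.1 and 29.9 CPM in WT-GFP and at 37.5 and 32.5 CPM in WT-Cre. Between MT486 and EV the Cre effect differed for 1 of 75 members, beside 2.96% of all genes, namely Mrpl54, by 0.85 (adjusted p = 0.00571). These 6 differences share the EV libraries, and without the block none passed the threshold in edgeR.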

How the results depend on the processing

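The replicate number as a block uses the pairing of the populations. With it, the counts of called members were 21 in EV (beside 43.0% of all genes), 8 in MT194 (26.7%), 10 in MT486 (23.2%) and 18 in DMT (40.7%). Against EV-Cre they were 24 in WT-Cre (40.1%), 4 in MT194-Cre (13.1%) and 8 in MT486-Cre (17.9%). For the difference of the Cre effect from that in EV they were 5 for WT (17.3%) and 1 for MT486 (2.96%). Over all genes, the calls in EV went from 1791 to 5935. In the clones the numbers did not pair the libraries (3 of 30 pairs of groups correlated over 0.1, median -0.0146), and the block left 1 member between N48 and the WT-labelled clones (beside 0.771% of all genes; Mrps15 was lost, adjusted p = 0.0677) and 2 over all 5 groups (4.93%), and between MT194 and N48 the call of Mrpl54 was lost (0.0510).

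DESeq2 called 4 members in EV (beside 17.8% of the genes it gave an adjusted p), 1 in MT194 (8.17%), 1 in MT486 (6.52%), 4 in DMT (16.0%), 5 in WT-Cre (13.8%) and 1 in MT486-Cre (3.97%) against EV-Cre, 1 for the difference between WT and EV (3.43%), and in the clones 5 between MT194 and N48 (13.7%), 2 between MT486 and N48 (4.49%), 10 between N48 and WT-labelled (9.49%) and 13 over all groups (29.3%). With no filter on low counts, which tests more genes, 0 members were called in DMT (beside 5.70%; Mrpl57 lost, adjusted p = 0.0743), 1 in WT-Cre against EV-Cre (3.90%; Mrps28 lost, 0.0542) and 1 between N48 and the WT-labelled clones (1.02%; Mrps15 lost, 0.0639), and the calls of Mrpl34 between MT194 and N48 (0.0540) and of Mrpl19 over all clone groups (0.0540) were lost. With an absolute log2 fold change over 0.5 required, 4 of 75 members, beside 3181 of all 13805 genes, differed between the experiments. Leaving out the low-Nelfb libraries, chosen after seeing the data, left 1 WT-labelled library. The log2 fold change between N48 and that library was -0.78 for Mrpl34 and -0.85 for Mrps15. Summing MT486 clones 1 and 2 was also chosen after seeing the data. It gave 1 member between N48 and the WT-labelled clones (beside 0.453% of all genes) and 2 over all groups (4.84%). With the longest transcript, the middle of the 75 members, each at its median over the libraries, was Mrpl33 at 13.2 FPKM. A separately computed median level for this setting was 14.2 FPKM, and why it differed was not tested. The ratio of replicate 2 to replicate 1 was 0.715 without TMM.

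With each library left out in turn, the count of called members ran from 0 to 1 in EV (beside 5.24 to 7.56% of all genes), 0 to 1 in DMT (3.69 to 5.64%), 0 to 1 in WT-Cre against EV-Cre (1.23 to 4.76%), 0 to 4 between MT194 and N48 (0.423 to 10.4%), 0 to 5 between N48 and the WT-labelled clones (0.0741 to 4.50%) and 1 to 8 over the clone groups (3.55 to 22.6%). Log2 fold changes in EV that were not called changed sign in Mrpl12 (-0.40 to 0.23, with 0.11 without EV-Cre replicate 2), Mrpl10 (-0.24 to 0.14, with 0.07), Mrpl11 (-0.48 to 0.0020), Mrps18a (-0.15 to 0.34, with -0.11 without EV-Cre replicate 1), Mrps18b (-0.0035 to 0.44), Mrps18c (-0.33 to 0.47, with -0.13 without EV-GFP replicate 2) and Mrpl44 (-0.11 to 0.19, with -0.07 without EV-Cre replicate 1). Mrpl52 in DMT-Cre against EV-Cre ran from -0.0024 to 0.56. Each of these fits leaves the experiments, between which the members differed, unbalanced between the groups. The part of this in the changes of sign was not tested. Mrpl23 and Mrps36, with at most 10 and 7 counts in a library, were not tested, and why their counts were low was not tested either.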
